A study of Mus musculus with 10 samples.

Results

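The 83 genes described here encode the proteins of the cytosolic ribosome, 51 of the large subunit and 32 of the small subunit. They were taken from 23992 gene symbols by name (Rpl and Rps with a number, Rplp0 to Rplp2, Rps4x and Rpsa, with the S6 kinases left out) where the transcript was a curated RefSeq messenger RNA, and the transcript with the most reads stood for each gene. RNA was sequenced in 10 libraries from Tregs of C57BL/6J mice, the Foxp3-expressing T lymphocytes that restrain immune responses. Wild-type natural Tregs from spleen spent 24 h in culture with anti-CD3 and anti-CD28, a pair of antibodies that triggers the T cell receptor (TCR), and with thymic stromal lymphopoietin, an epithelial cytokine (TCR + TSLP, 2 libraries), or with the antibodies alone (TCR, 2 libraries). Tregs from the allergic lungs of OVA-immunized mice carried either floxed Crlf2, which encodes a chain of the TSLP receptor, together with Foxp3YFP-Cre (Crlf2-deleted, 3 libraries), or Foxp3YFP-Cre alone (control, 3 libraries). All lung mice were immunized and all carried the Cre, which is driven by Foxp3 and so acts in cells that express it. Ages were not given.

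Each ribosome holds a single copy of nearly all of these proteins, so cells make them in matched amounts. In mammals their messenger RNAs are short, abundant and begin with a run of pyrimidines (the 5′ terminal oligopyrimidine, or TOP, motif), through which the mTORC1 kinase and the binding protein LARP1 set their translation and stability. Activated T cells raise ribosome production as they grow and divide.

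The pyrimidine run was looked for in the RefSeq promoter windows (build GRCm38.p6), which matched 63 of the 83 genes. A run meant a C followed by pyrimidines, at least 5 long in all. It was read from the first C within 5 bases of the annotated start, even where the pyrimidine tract began further upstream. Such a run stood in 28 of the 63 (44.4%), against 18.5% of all 27025 promoters and 20% of those of other tested genes. The windows below, 60 bases before to 20 after the start, are those of the matched genes with the largest falls and the smallest changes in the TSLP comparison described below, with any such run in capitals.
Rps24 (chr14:24490618-24490697, plus strand): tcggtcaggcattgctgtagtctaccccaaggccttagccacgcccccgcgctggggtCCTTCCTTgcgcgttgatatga
Rpl37a (chr1:72711200-72711279, plus strand): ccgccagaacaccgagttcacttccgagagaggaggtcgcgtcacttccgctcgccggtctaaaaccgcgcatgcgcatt
Rpl38 (chr11:114668520-114668599, plus strand): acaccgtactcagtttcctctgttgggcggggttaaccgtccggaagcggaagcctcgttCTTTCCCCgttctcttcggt
Rplp2 (chr7:141447591-141447670, plus strand): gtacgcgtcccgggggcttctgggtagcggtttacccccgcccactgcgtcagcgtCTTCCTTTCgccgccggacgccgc
Rpl4 (chr9:64173327-64173406, plus strand): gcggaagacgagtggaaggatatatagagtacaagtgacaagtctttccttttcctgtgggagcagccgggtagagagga
Rplp0 (chr5:115559407-115559486, plus strand): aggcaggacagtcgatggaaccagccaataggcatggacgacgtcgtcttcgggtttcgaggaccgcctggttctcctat
Rpl15 (chr14:18270967-18271046, minus strand): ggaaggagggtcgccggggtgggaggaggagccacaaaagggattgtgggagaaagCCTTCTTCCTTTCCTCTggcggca
Rpl7a (chr2:26910747-26910826, plus strand): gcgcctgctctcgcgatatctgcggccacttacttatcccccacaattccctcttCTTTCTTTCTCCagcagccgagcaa
Rpl7l1 (chr17:46782637-46782716, minus strand): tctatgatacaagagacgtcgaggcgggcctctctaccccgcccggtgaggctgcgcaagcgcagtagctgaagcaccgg

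Runs thus stood both in genes that fell most (Rps24, Rpl38, Rplp2) and in genes with the smallest changes (Rpl15, Rpl7a). The run marked in Rpl7a is the end of a longer pyrimidine tract that begins further upstream than 5 bases from the start. The median log2 fold change in the TSLP comparison was -1.07 for the 28 tested genes with a run and -1.06 for the 33 tested genes without one. Where no run was found, none began within 5 bases of the annotated start. Pyrimidine runs can stand elsewhere in those windows, as in that of Rpl4. The annotated start may also lie away from the one the cells use. Of the other letters searched, on both strands of the 300-base window, CCGGAAG (bound by ETS factors) stood in 39.7% of the 63 promoters, against 9.12% of all promoters and 17.3% of those of other tested genes. TATAAA, the TATA box, stood in 9.52%, against 14.2% of all promoters and 7.45% of those of other tested genes.

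Counted on 1 transcript per gene, spleen libraries held 27237270 to 51671796 reads, and lung libraries 1439662 to 18348844. The smallest was control lung library 2. Crlf2, the deleted gene, had 9.06, 6.73 and 3.55 CPM in Crlf2-deleted Tregs, against 92.8, 146 and 105 in control Tregs. Its adjusted p was 0.00465 (edgeR). CPM values of single genes in the text are reads scaled to library size with edgeR's TMM factors. The marker sums below are CPM of each library's total, without those factors. The labels do not state that replicates came from different animals or cultures. The p-values therefore measure only the spread between these libraries, which may be technical. Messenger RNAs of lung epithelium (Scgb1a1, Sftpc and others) summed to 2386 to 19437 CPM in the Crlf2-deleted libraries and to 16774 to 74226 in the control lung libraries, while Sftpc, Sftpa1 and Scgb1a1 had 0 reads in every spleen library. Haemoglobin and other erythroid genes reached 98734 CPM in control lung library 3. That library also had the highest marker sums of myeloid cells (4152 CPM), B cells (299) and CD8 T and NK cells (148). In control lung libraries 1 and 2 these were 339 and 451, 17.7 and 21.5, and 19.2 and 17.4. The myeloid sum was 1136 to 1246 in Crlf2-deleted libraries. T cell and Treg marker genes summed to 3827 to 3932 in Crlf2-deleted, 1671 to 3450 in control, 3422 to 3564 in TCR + TSLP and 2992 to 3053 CPM in TCR libraries, so the labelled cells were detected in all 4 groups beside RNA of other lung cells in the lung libraries.

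Ribosomal protein genes took a larger share of the reads in stimulated spleen Tregs than in lung Tregs, and a smaller share with TSLP than without. They held 12.8% and 12.2% of the reads in TCR + TSLP libraries, against 22.9% and 21.5% in TCR libraries. They held 6.07%, 6.00% and 6.38% in Crlf2-deleted lung libraries, against 5.73%, 6.15% and 5.38% in control lung libraries. The TCR + TSLP and TCR libraries were fully separate, whereas the lung groups overlapped. In bulk RNA, fewer cells of a type and less RNA per cell cannot be told apart.

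The 2 subunits kept nearly the same proportion in all groups. Large-subunit genes took 59.3% and 59.7% of the ribosomal protein reads in TCR + TSLP and 58.6% and 58.5% in TCR libraries. The corresponding shares were 61.3%, 60.9% and 61.6% in Crlf2-deleted and 61.3%, 61.1% and 60.1% in control lung libraries. On the length-corrected RPKM scale (reads per kilobase of transcript, scaled to library size) every library lay between 56.7% and 58.4%. The share of all reads therefore ranged from 5.38% to 22.9%, while the large-subunit share of them stayed between 58.5% and 61.6%.

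**Figure D1:**
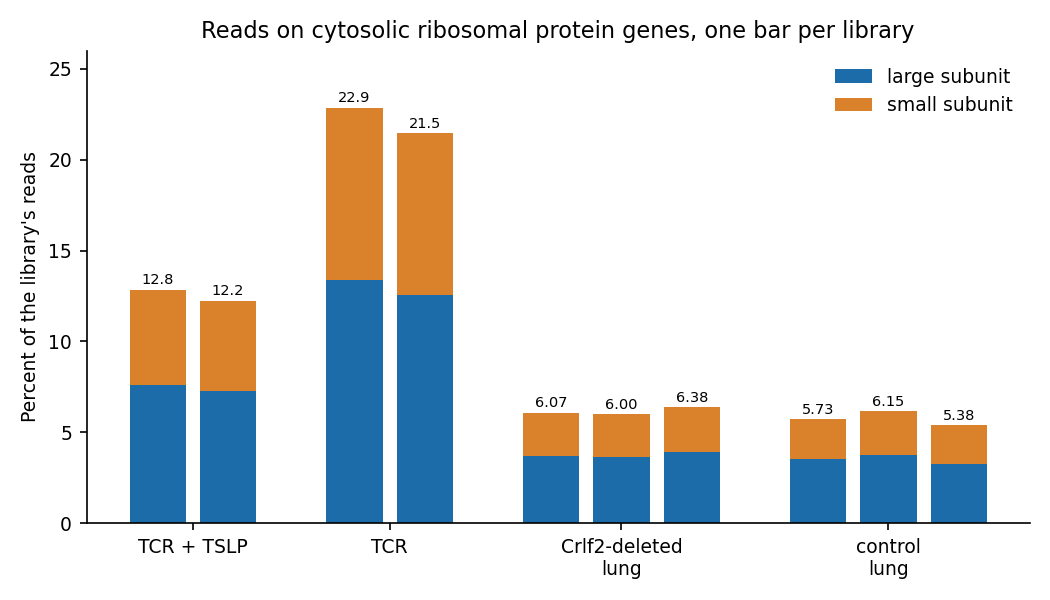
Percent of each library's reads (y axis) on large-subunit (blue) and small-subunit (orange) ribosomal protein genes, 1 bar per library, with the summed percent above it. The 2 TCR + TSLP bars (12.8 and 12.2) stand below the 2 TCR bars (22.9 and 21.5), and the 6 lung bars lie between 5.38 and 6.38.

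Levels per transcript length spanned a wide range, and the order was not the same in spleen and lung. The median RPKM of the 80 genes with a mean of at least 5 RPKM was 852 in TCR + TSLP, 1374 in TCR, 213 in Crlf2-deleted and 171 in control lung libraries. The deposited RPKM values imply a library total larger than the listed reads. Reads over all rows made up 52.9% to 63.8% of that total in spleen libraries and 21.2% to 33.8% in lung libraries. RPKM therefore places lung lower against spleen than CPM does. Rpl41, which encodes the smallest protein of the ribosome, stood first in all 4 groups, at 2797 ± 127 RPKM in TCR + TSLP (SD, n = 2), 6247 ± 394 in TCR (n = 2), 1173 ± 192 in Crlf2-deleted (n = 3) and 935 ± 27.8 in control lung libraries (n = 3). Among the 20 genes of any kind with the highest mean RPKM, 12 were ribosomal protein genes in TCR + TSLP, 18 in TCR, 5 in Crlf2-deleted and 1 in control lung libraries.

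Rplp1, a protein of the stalk that recruits elongation factors, stood second in both spleen groups, at 2022 ± 21.3 RPKM in TCR + TSLP and 3988 ± 253 in TCR libraries (SD, n = 2 each). It was followed in TCR libraries by Rps20 at 3143 ± 12.9, Rps12 at 3035 ± 71.3 and Rpl28 at 2971 ± 112 RPKM. Of those neighbours, Rps12 and Rpl28 differed by less than the SD of either. In control lung libraries places 2 to 4 went to Rps28 (558 ± 104 RPKM), Rps18 (467 ± 83.3) and Rplp0 (459 ± 41.1, n = 3 each). Rps28 stood above Rps18 and Rplp0 in each control lung library, while Rps18 and Rplp0 changed order between libraries. Rps20 and Rps12, in places 3 and 4 in TCR libraries, were in places 52 and 63 in control lung libraries.

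The tail of the order held the paralogs and 1 long transcript. Rpl10l, a copy of Rpl10 used in the male germ line, had 0 reads in 8 of 10 libraries and at most 2. Rpl3l, a copy of Rpl3 found in muscle, had at most 16 reads. Rpl39l, a testis copy of the exit-tunnel protein Rpl39, had 29 and 40 reads in TCR + TSLP, 33 and 50 in TCR, 0, 0 and 4 in Crlf2-deleted and 1, 0 and 0 in control lung libraries. Rpl7l1, a relative of Rpl7 that takes part in ribosome assembly, had 31.3 ± 0.157 RPKM in TCR + TSLP and 23.5 ± 3.69 in TCR libraries (SD, n = 2 each). The low place of Rps15a (72.1 RPKM in TCR + TSLP and 133 in TCR libraries) rests on a row of 5134 bp, 8.02 times its shortest coding transcript in GENCODE.

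Mammalian genomes hold many processed pseudogenes of ribosomal protein genes, copies that resemble the parent transcript. Of the 83 genes, 80 shared at least 1 stretch of 50 bases, the read length, with another annotated gene, against 27.7% of other genes. In 39 of the 83 (47.0%) at least 50% of such stretches were shared, against 2.43% of other genes. The stretches were those of the matched GENCODE transcript, which for some genes is longer than the deposited row (3706 against 502 bp for Rps20). Which genes lie under 50%, and so stay when the others are left out below, depends in part on that length. The sources used here do not say how such reads were assigned. Rps27 had the same read count as its listed copy Rps27rt in 10 of 10 libraries, so the deposited counts of those 2 genes cannot be told apart.

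TSLP was accompanied by lower ribosomal protein messenger RNA across both subunits. Of 81 genes tested, 78 fell, 0 rose and 3 did not pass, with an adjusted p threshold of 0.05 in edgeR's quasi-likelihood test. The 78 include Rpl39l, whose few reads are given above. It did not pass in DESeq2 (adjusted p = 0.103) or in 1 fit of all 4 groups (adjusted p = 0.666, edgeR). Over all 13214 genes tested, 23.1% were called lower and 22.7% higher. The median log2 fold change was -1.09 over the 81 genes, -1.09 for the large subunit and -1.09 for the small subunit, against 0.0079 over all genes. The TCR + TSLP libraries lay below the TCR libraries without overlap for 79 of the 81, against 37.3% of all genes tested.

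The largest fall was that of Rpl36, a large-subunit protein, with 673 and 656 CPM in TCR + TSLP libraries, against 2823 and 2068 in TCR libraries. That is a log2 fold change of -1.88 ± 0.15 (SE), with an adjusted p of 0.000159 in edgeR. Both TCR + TSLP libraries were close together, and the TCR libraries differed more from each other. Rps24, a small-subunit protein mutated in some human patients with Diamond-Blackfan anaemia, had 2161 and 1920 CPM in TCR + TSLP, against 7700 and 6118 in TCR libraries, a log2 fold change of -1.76 ± 0.13. Rps19, the gene most often mutated in that anaemia, had 1092 and 1037 in TCR + TSLP, against 3448 and 2855 in TCR libraries (-1.57 ± 0.11). Rpl37a, a zinc-binding large-subunit protein, had 636 and 625 CPM in TCR + TSLP, against 2196 and 1975 in TCR libraries (-1.73 ± 0.10). In each of these genes TCR library 1 was above TCR library 2, and both stood clear of the TCR + TSLP libraries.

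Within the stalk the members differed. Rplp2 had 1160 and 1028 CPM in TCR + TSLP, against 3599 and 3031 in TCR libraries (log2 fold change -1.60 ± 0.12). Rplp1 had 1999 and 1948, against 5570 and 4539 (-1.36 ± 0.12). Rplp0, the protein that anchors them to the ribosome, had 4236 and 4018 in TCR + TSLP, against 4711 and 5413 in TCR libraries, a log2 fold change of -0.29 ± 0.10 that passed narrowly (adjusted p = 0.0489, edgeR). On the RPKM scale its value was 0.079, and it did not pass. Rplp1 did not pass with length and GC trends removed (-0.18, adjusted p = 0.107, edgeR). Rplp0 is 1360 bp long in these files, against 468 bp for Rplp1 and 441 bp for Rplp2.

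Of the genes with known special roles, all in the following group passed and fell. Rpl38, which in mice is needed for translation of Hox messenger RNAs, had 461 and 415 CPM in TCR + TSLP, against 1591 and 1184 in TCR libraries (log2 fold change -1.66 ± 0.14). Rpl5, which binds 5S ribosomal RNA and Mdm2, fell by 1.01 on the log2 scale, and its partner Rpl11 fell by 0.94. With the length trend from other genes removed Rpl5 stood at -0.93, while Rpl11 stood at -0.086 and did not pass (adjusted p = 0.397, edgeR), nor did it under the other length corrections. Rps6, the substrate of the S6 kinases, had 2137 and 1920 in TCR + TSLP, against 3460 and 3695 in TCR libraries (-0.82 ± 0.10). Rpsa, also known as a laminin receptor, fell by 1.25, and Rps2 and Rpl4, which lines the exit tunnel, fell by 0.45 and 0.41. Neither Rps2 nor Rpl4 passed under any length correction, or on the RPKM scale, where the median of all genes tested stood at 0.20.

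Of the paralog pairs, Rpl22, which mice need for the development of alpha-beta T cells, fell more than its copy Rpl22l1. Rpl22 had 634 and 572 CPM in TCR + TSLP, against 1327 and 1342 in TCR libraries (log2 fold change -1.15 ± 0.09). Rpl22l1 had 117 and 108, against 164 and 188 (-0.65 ± 0.10). Rps27 fell by 1.30 and its copy Rps27l, a p53 target, by 0.53. On the RPKM scale Rpl22l1 (-0.28, adjusted p = 0.178, limma) and Rps27l (-0.16, adjusted p = 0.426, limma) did not pass, and Rps27l did not pass in 1 fit of all 4 groups (adjusted p = 0.0696, edgeR). With the length trend removed both stood above 0 (0.35 and 0.48) and were called higher, and Rps27 did not pass (-0.21). The differences within the pairs were not tested.

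The 3 genes that did not pass were all of the large subunit. Rpl15 had 1346 and 1326 CPM in TCR + TSLP, against 1402 and 1623 in TCR libraries (log2 fold change -0.18 ± 0.10, adjusted p = 0.179, edgeR). Rpl7a had 1886 and 1802, against 1776 and 2191 (-0.11 ± 0.12, adjusted p = 0.487). Rpl7l1 had 172 and 169, against 156 and 174 (0.05 ± 0.09, adjusted p = 0.700). The groups did not overlap for Rpl15 and overlapped for Rpl7a and Rpl7l1.

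**Figure D2:**
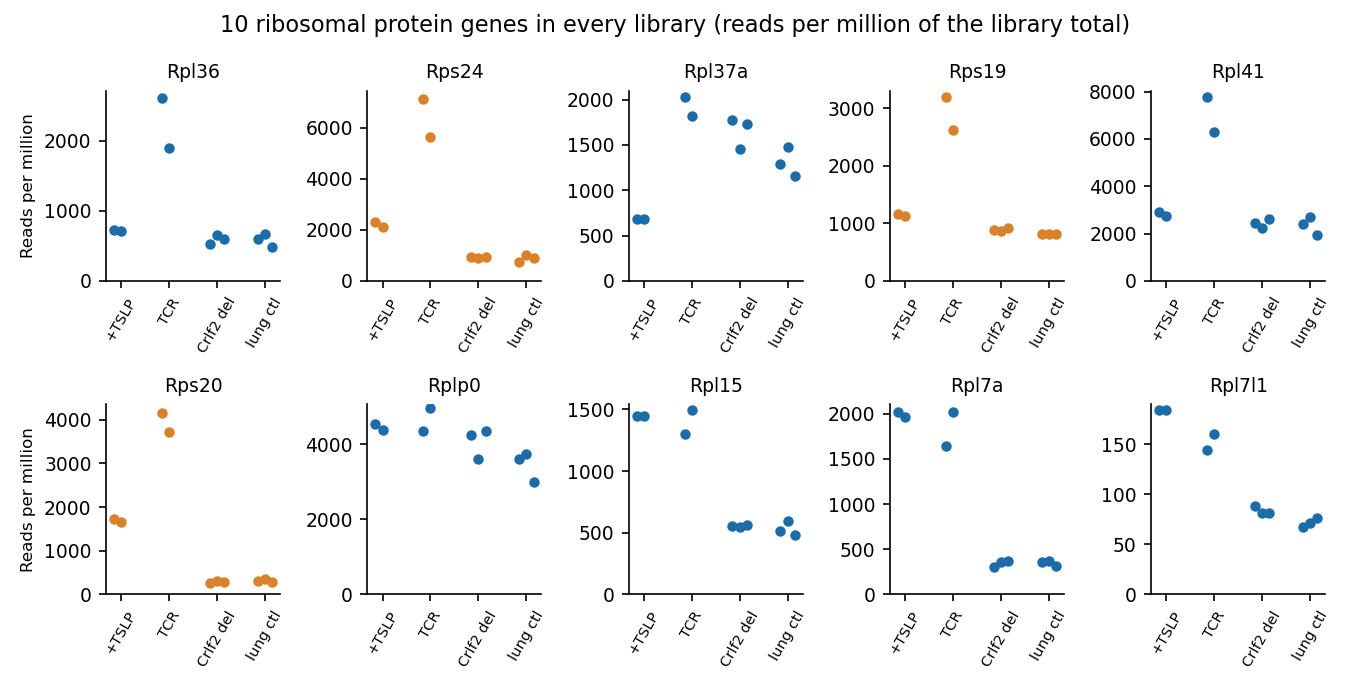
CPM of each library's total (y axis, from 0, without TMM scaling) for 10 ribosomal protein genes in every library, with large-subunit genes in blue and small-subunit genes in orange. Rpl36, Rps24, Rpl37a, Rps19, Rpl41 and Rps20 stand lower in both TCR + TSLP libraries than in both TCR libraries, while Rplp0, Rpl15, Rpl7a and Rpl7l1 do not separate in that way.

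Transcript length moved with the TSLP comparison in genes of every kind, and ribosomal protein transcripts are short, with a median of 710 bp. Of the other messenger RNA rows under 500 bp, 92.2% of 102 were called lower, with a median log2 fold change of -1.40, against -1.36 for the 17 ribosomal protein genes of that length, all of which fell. From 500 to below 750 bp the medians were -1.08 for 29 ribosomal protein genes and -0.88 for 289 other rows. From 750 to below 1000 bp they were -1.07 for 17 and -0.60 for 449, and from 1000 to below 1500 bp -0.83 for 10 and -0.35 for 1248. At 1500 bp or more the 8 ribosomal protein rows had a median of -1.08, against 0.11 for 10035 other rows, of which 1504 were called lower and 2803 higher. The shortest ribosomal protein genes were thus not lower than other messenger RNAs of like length, and the gap was wider among longer rows.

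For 5 of those 8 long rows GENCODE holds a coding transcript at least 1.5 times shorter, so the deposited length may not be that of the RNA the reads came from. The 3 others, Rpl5 (2019 bp), Rps3 (1878 bp) and Rpsa (1861 bp), fell by 1.01, 0.79 and 1.25 on the log2 scale. Over the 81 genes the log2 fold change correlated with length at a Spearman rho of 0.43 and with GC content at -0.24, as a description of genes that share libraries.

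With a smooth length trend, drawn from the genes other than these, removed, 52 of the 81 fell and 2 (Rpl7a and Rps27l) rose, and the median was -0.35. The large-subunit median was then -0.41 and the small-subunit median -0.26. Over all genes, 18.1% were then called lower and 23.3% higher. Rps24 stayed among the lowest at -1.20 ± 0.12 (adjusted p = 0.000849, edgeR), Rpl37a was at -0.86 ± 0.08, Rpl36 at -0.86 ± 0.11 and Rps19 at -0.75 ± 0.09. Rps15a (-1.39) and Rpl21 (-1.33) then stood lowest, both with rows over 2 times as long as their shortest coding transcripts. The Rps24 row of 875 bp is likewise 1.87 times its shortest coding transcript of 468 bp, so its corrected value rests on a length that may not be that of the RNA measured. With the trend drawn from all genes the counts were 50 lower and 5 higher, against 17.8% and 23.5% of all genes. With GC content added they were 44 lower and 3 higher, against 16.1% and 23.1%. How much of the fall goes with length and how much with being a ribosomal protein gene cannot be told apart from these libraries.

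**Figure D3:**
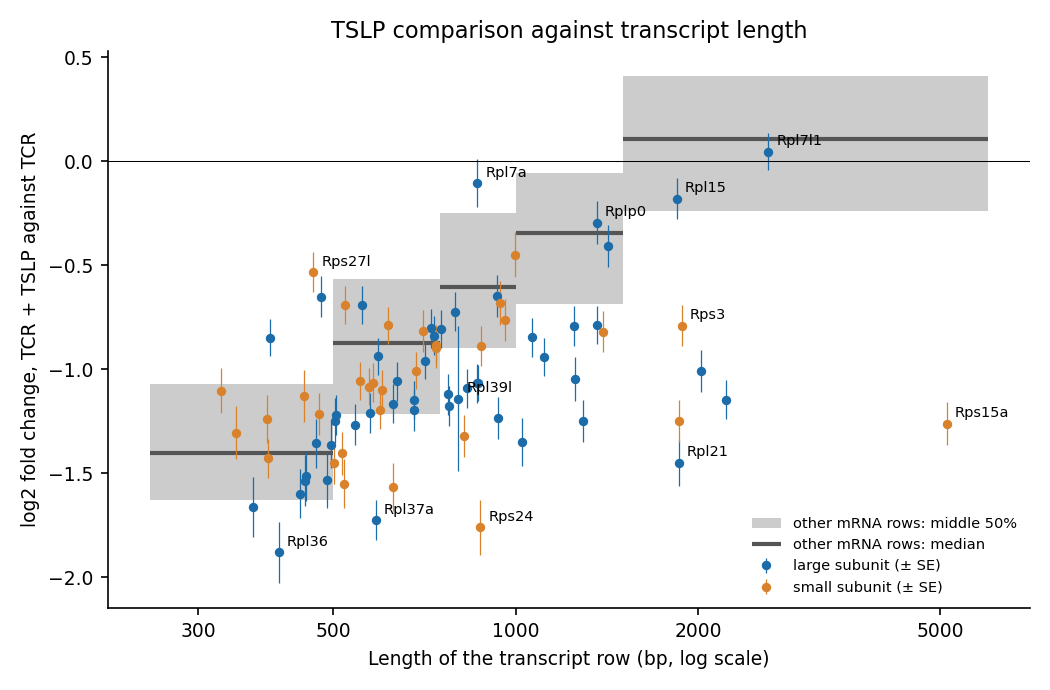
Log2 fold change of TCR + TSLP against TCR (y axis) by the length of the transcript row (x axis, log scale) for 81 ribosomal protein genes, with SE bars, large subunit in blue and small subunit in orange. Grey bands and lines give the middle 50% and the median of other messenger RNA rows in 5 length classes. The genes under 500 bp lie around the grey median of -1.40, and most of those of 1500 bp or more lie below the grey band, whose median is 0.11.

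The rest of the translation machinery did not move as 1 group with TSLP. The counts below stand beside 23.1% of all genes called lower and 22.7% called higher, and several of them lie near those shares. Of 4 ribosomal protein genes outside the naming rule, all fell, with a median log2 fold change of -1.05. Fau, which encodes a small-subunit protein fused to a ubiquitin-like one, fell by 1.51, and Gnb2l1, which encodes the scaffold RACK1, by 0.59. Of 16 elongation and associated factors that are known TOP messenger RNAs or close to them, 6 fell and 3 rose, with a median of -0.05. Eef1d and Eef1b2, exchange-factor subunits for elongation factor 1, fell by 1.12 and 0.82, while Eef2 was higher by 0.32 and Pabpc1, the poly(A)-binding protein, by 0.59. Of 29 initiation factors 10 fell, among them Eif5b (-0.99 ± 0.12) and Eif3k (-0.83 ± 0.09), and 7 rose, among them Eif4g2 (0.82 ± 0.10) and Eif5 (0.61 ± 0.09).

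Of 14 genes of mTORC1 and TOP control 4 rose and 1 fell, and the share that rose was near that of all genes. Eif4ebp2, a translational repressor, rose by 1.03, Myc, which drives ribosome production, rose by 0.89, and Larp1, the TOP-binding repressor, fell by 0.33. Of 10 chaperones that carry single ribosomal proteins or assemble subunits, 3 fell and 2 rose, with a median of -0.03, again near the shares over all genes. These transcripts are mostly longer than the ribosomal protein ones, and length was not matched in these lists.

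In lung Tregs the deletion of Crlf2 was accompanied by no called change in any ribosomal protein gene. Of 80 genes tested, 0 passed in edgeR, 0 in DESeq2 and 0 in limma on RPKM values, against 1.01% of all 12717 genes called lower and 0.771% called higher in edgeR. At an unadjusted p under 0.05 in edgeR there were 9 of the 80 (11.2%), all lower. Of all 12717 genes, 2017 (15.9%) were under it in either direction, 1160 of them lower. The median log2 fold change was -0.10, with -0.10 for the large and -0.09 for the small subunit, against -0.044 over all genes, and the median SE was 0.11. Values ran between -0.48 and 0.16, with 63 below 0 and 17 above.

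Rpl31, a large-subunit protein near the exit tunnel, had the lowest value. It had 109.6, 146 and 125 CPM in Crlf2-deleted Tregs, against 179, 162 and 190 in control Tregs (log2 fold change -0.48 ± 0.15, adjusted p = 0.150, edgeR). All 3 Crlf2-deleted libraries were below all 3 control libraries. It passed in 1 fit of all 4 groups (adjusted p = 0.0468, edgeR), where it was the only one to do so. Rpl22l1 had 43.3, 43.2 and 41.5 in Crlf2-deleted Tregs, against 50.0, 58.8 and 65.2 in control Tregs (-0.44 ± 0.16, adjusted p = 0.233, edgeR). Rps14, a small-subunit protein, had 846, 641 and 968.8, against 1188, 969.5 and 1054 (-0.39 ± 0.16), with Crlf2-deleted library 3 just under control library 2. Rps20 had 243, 284 and 269, against 335.5, 343 and 327 (-0.33 ± 0.11), and Rps26 had 581, 541 and 505, against 650, 669 and 688 (-0.30 ± 0.10), both without overlap.

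At the other end Rpl37a had 1666, 1349 and 1660 in Crlf2-deleted Tregs, against 1380, 1456 and 1335 in control Tregs (0.16 ± 0.12), and Rpl6 was at 0.12 ± 0.11, with overlapping groups in both. Over the 80 genes the Crlf2-deleted libraries lay below the control libraries without overlap in 22, against 11.6% of all genes, and above them in 0, against 10.5%. None of these differences was called in the comparison of the lung groups alone. The direction of the median depended on the scale: it was 0.075 with library totals alone, where the median of all genes was 0.14. On the RPKM scale it was 0.33 at either pseudocount, above the median of all genes of 0.21 at a pseudocount of 1 and below that of 0.37 at 0.1. The cell type marker sums given above also differed between the libraries of these groups, and their part in these values was not tested.

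Of the 73 genes in the 5 lists of other translation genes 0 passed in edgeR, against 1.01% of all genes called lower and 0.771% higher. An unadjusted p under 0.05 in edgeR was found for 12 of the 73, 9 of them lower, near the 15.9% of all genes in either direction. Myc was nearest to the threshold, with a log2 fold change of -0.99 ± 0.20 (adjusted p = 0.0506, edgeR).

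Control lung Tregs were set against TCR spleen Tregs to describe how far the group varies across the study. Organ, culture with TCR antibodies, immunization, Foxp3YFP-Cre and possibly the library kit and sequencing run differ together here, so they cannot be told apart. Of 81 genes tested 80 were lower in control lung Tregs and 0 higher, against 26.3% of 13304 genes called lower and 25.6% called higher. The 80 include Rpl39l, whose few reads are given above. The median log2 fold change was -2.13, with -2.11 for the large and -2.16 for the small subunit, against 0.00042 over all genes. The large-subunit median minus the small-subunit one was 0.049, but it was -0.54 when genes with at least 50% shared 50-base stretches were left out and 0.21 without TCR library 2, so the likeness of the subunit medians here depends on which genes and libraries enter. All 81 were without overlap, against 37.9% of all genes. Among these 81 genes length did not track the values (Spearman rho -0.08), nor did the share of 50-base stretches found in other genes (0.11) or GC content (0.18). From the shortest of the 5 length classes up, their medians were -2.17, -1.82, -2.39, -2.26 and -2.90. Those of other messenger RNA rows were 1.16, -0.27, -0.20, -0.17 and 0.039. Of the 111 other rows under 500 bp, 26.1% were called lower and 47.7% higher.

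**Figure D4:**
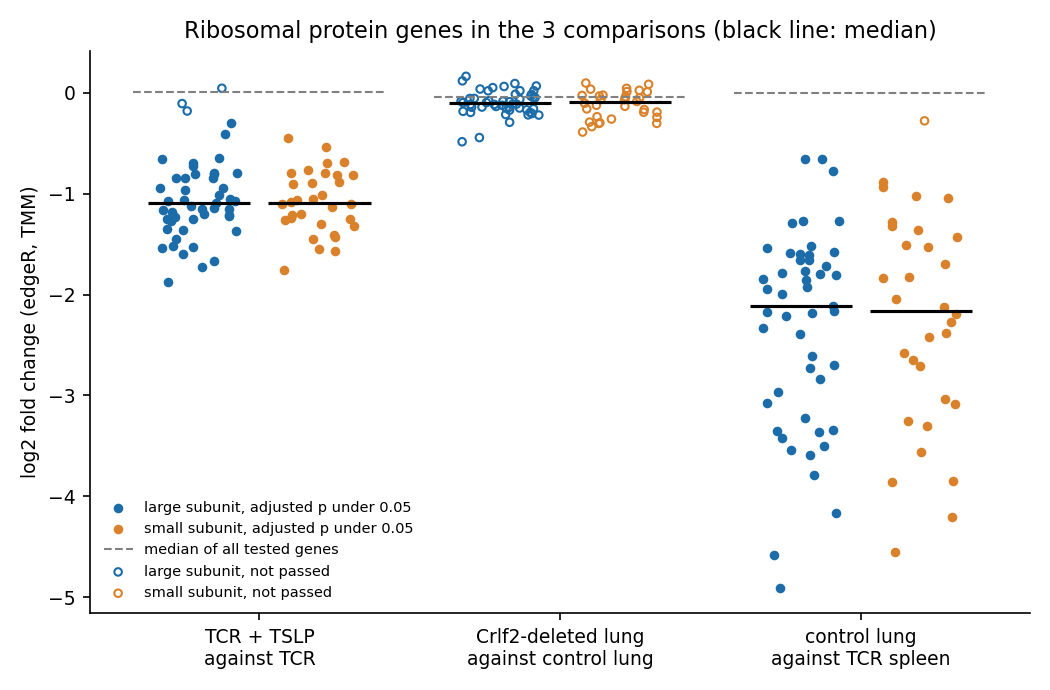
Log2 fold change (y axis, edgeR with TMM scaling) of each tested ribosomal protein gene in the 3 comparisons (x axis), with large-subunit genes in blue and small-subunit genes in orange, filled where the adjusted p is under 0.05. Black lines are medians of a subunit and dashed lines are medians of all genes tested. The subunit medians lie side by side in each comparison (-1.09 and -1.09, -0.10 and -0.09, -2.11 and -2.16).

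The genes did not shift by 1 common amount between lung and spleen. The SD of their log2 fold changes was 1.01 here, against 0.37 in the TSLP comparison, while the median SE of a single value was 0.12. Rpl12, a protein at the base of the stalk, had 167, 172 and 185 CPM in control lung Tregs, against 4075 and 4276 in TCR spleen Tregs (log2 fold change -4.58 ± 0.12, adjusted p = 4.64e-06, edgeR). Rps12 had 178, 195.4 and 176, against 4495 and 4081 (-4.55 ± 0.12), and Rps20 had 299, 300.2 and 291, against 4575 and 4041 (-3.86 ± 0.12). Rpsa had 692, 644 and 636, against 12739 and 11530.0 (-4.21 ± 0.11), and Rpl5 had 257, 276 and 360, against 5678 and 5041 (-4.17 ± 0.17). In these 5 genes the lung libraries held between 4.19% and 6.88% of the spleen level.

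Other genes of the same subunits differed less on the CPM scale. Rps28, a small-subunit protein near the mRNA exit site, had 906, 899.5 and 1021 in control lung Tregs, against 1244 and 1039 in TCR spleen Tregs (log2 fold change -0.28 ± 0.13, adjusted p = 0.119, edgeR). It was called lower under 7 alternatives, among them 1 fit of all 4 groups (-0.31, adjusted p = 0.0233, edgeR), the replicate block (-0.33, adjusted p = 0.0296, edgeR), the 3 length corrections (-0.54, -0.79 and -0.84) and RPKM (-1.21, adjusted p = 0.00119, limma). Rplp0 had 3427, 3240 and 3087, against 4796 and 5427 (-0.65 ± 0.11), and Rpl37 had 678, 713 and 643, against 1097 and 1032 (-0.65 ± 0.12). Rpl37a had 1229, 1275 and 1188, against 2235 and 1980 (-0.78 ± 0.11). The genes of the stalk were again spread, with Rplp2 at -3.34 ± 0.13, Rplp1 at -2.69 ± 0.15 and Rplp0 at -0.65. Of the 5S RNA partners, Rpl5 was at -4.17 and Rpl11 at -1.72 ± 0.11.

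The profile over genes was nearly the same in the 2 lung genotypes and differed between lung and spleen. Across the 80 genes, mean log2(RPKM + 1) correlated at a Pearson r of 0.996 between Crlf2-deleted and control lung Tregs and of 0.95 between TCR + TSLP and TCR spleen Tregs. Between control lung and TCR spleen Tregs r was 0.70, and the Spearman rho was 0.50. Single libraries of 1 group correlated at 0.99 or more. These are descriptions of 80 genes that share libraries, length and base composition, with no test.

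**Figure D5:**
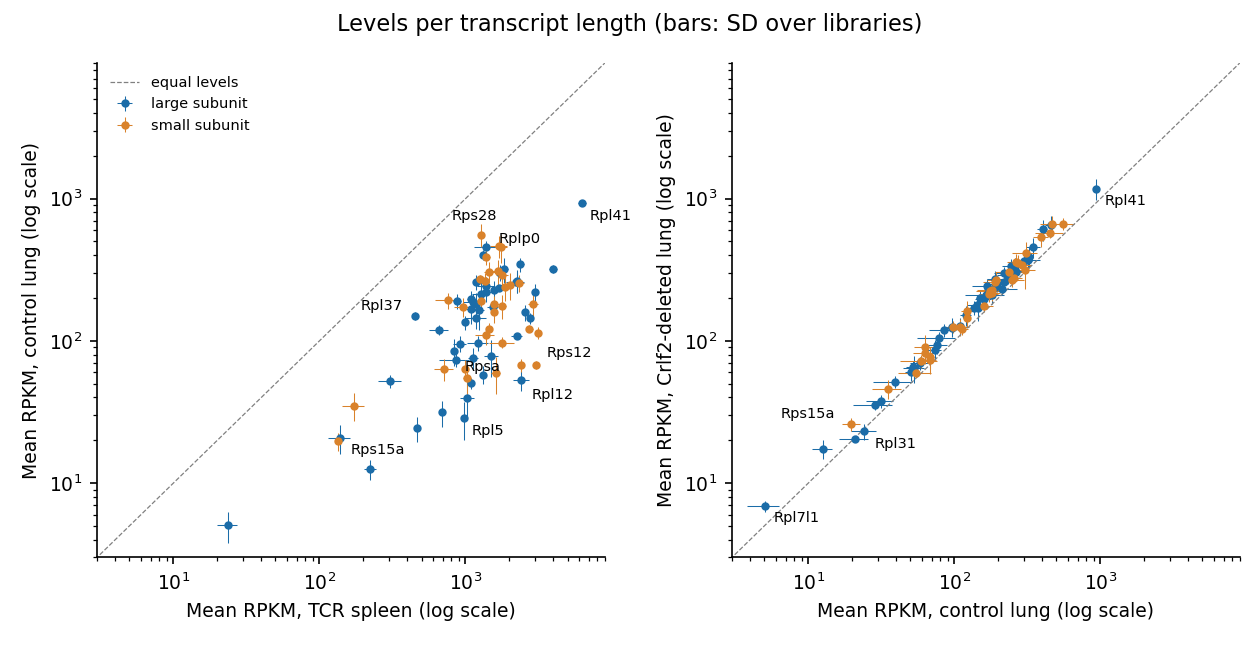
Mean RPKM per ribosomal protein gene (80 genes, log axes, SD bars over the libraries of a group), with large-subunit genes in blue and small-subunit genes in orange. Left, control lung (y) against TCR spleen (x), where all points lie below the dashed line of equal levels and scatter widely (r = 0.70). Right, Crlf2-deleted lung (y) against control lung (x), where points follow a single line (r = 0.996).

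The elongation and initiation factors were also lower in control lung than in TCR spleen Tregs. The list counts here stand beside 26.3% of all genes called lower and 25.6% called higher. All 16 elongation and associated factors were called lower, with a median log2 fold change of -2.50, from Nap1l1 at -4.11 ± 0.18 and Eef1b2 at -3.95 ± 0.13 to Eef2 at -0.33 ± 0.10. Of 29 initiation factors 28 were lower and 0 higher (median -1.55), and of the 4 ribosomal protein genes outside the naming rule 4 were lower, among them Gnb2l1 at -3.45 ± 0.11 and Fau at -0.59 ± 0.12. Of 10 chaperones 6 were lower and 0 higher. Among the 14 genes of mTORC1 and TOP control 4 were lower and 4 higher, near the shares over all genes. Larp1 (-4.01 ± 0.14) and Myc (-0.87 ± 0.23) were among the 4 lower. Maf1 (1.65 ± 0.16), Eif4ebp2 (1.52 ± 0.20) and Mtor (0.57 ± 0.20) were among the 4 higher. The epithelial and erythroid RNA of the lung libraries, absent or nearly absent in spleen, is part of the total in which these levels are expressed, and its part in them was not tested.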

How the data were processed

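Each library file lists, per the file headers, counts of whole reads for 31682 RefSeq transcripts, and the RPKM value and length of each transcript as deposited. Among the tools in the submitters' processing notes are bedtools 2.25.0, SAMtools 0.1.8, TopHat2 2.2.1, Bowtie2 2.2.6 and edgeR. The sources used here do not give the role of each tool or the handling of multimapping reads and strand. Per the labels' protocols, TCR-stimulated Tregs were prepared from 100 to 500 ng RNA with a stranded, ribosomal-RNA-depleting kit and read as 50 bp single ends. The lung kit is not stated separately.

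Counts, with 1 row per symbol, went into the quasi-likelihood test of edgeR 4.0.16, run in R 4.3.3 (TMM, filterByExpr with a minimum count of 10, robust, two-sided) over all genes of each comparison, with Benjamini-Hochberg adjustment and a threshold of 0.05. SE is the log2 fold change divided by the root of F. Normalised levels of genes are CPM after TMM, while marker sums are CPM of the library total. Alternatives were DESeq2 1.42.0, limma 3.58.1 on log2(RPKM + 1) and on log2(RPKM + 0.1), other scalings and filters, loess trends (span 0.3) on length and GC, a replicate block and leaving out libraries. The script was tested on simulated data. Shared 50-base stretches, GC content and coding lengths came from GENCODE vM21. A total count of 1439662 reads in the smallest library limits the lung precision.

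The genes and lists were chosen with earlier results of these data known. Genes named with values are the stalk proteins, members with known roles, paralogs, the 5 highest and 5 lowest of each comparison and of the mean RPKM, and up to 4 called members of each list. Rpl21, Rps18 and the list genes beyond 4 were named after their values were seen. Some genes that the rule would name are not reported here.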

Additional observations from a re-analysis of the deposited data

How the results depend on the processing

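In the TSLP comparison the 78 falls became 40 of 42 when genes with at least 50% shared 50-base stretches were left out. They became 50, 52 and 44 with the length trend, the trend from other genes, and length with GC removed. The matching medians were -0.33, -0.35 and -0.26, with 5, 2 and 3 genes higher. Of all genes, 17.8%, 18.1% and 16.1% were then called lower and 23.5%, 23.3% and 23.1% higher. Library totals alone gave 74 lower, 1 higher (Rpl7l1) and a median of -0.86. RPKM gave 66 lower at a pseudocount of 1 and 70 at 0.1, with a median of -0.71 at either and 1 higher at 0.1. Those scalings moved the median of all genes to 0.24, 0.20 and 0.33. In 1 fit of all 4 groups 73 of 82 were lower, with a median of -1.04. Genes of any kind called in either direction numbered 7059, 6930, 6972 and 1356 in these 4 settings, against 6050 in the main fit. Under the 3 length corrections, in that order, Rpl22l1 stood at 0.35, 0.31 and 0.14, Rpl39 at 0.22, 0.17 and 0.19, Rpl7a at 0.48, 0.46 and 0.52, Rps2 at 0.031, 0.023 and 0.17 and Rps27l at 0.48, 0.44 and 0.36. Rplp0 stood at 0.079 on either RPKM scale, at 0.0019 with length and 0.051 with length and GC removed, where Rps10 stood at 0.028 and Rps28 at 0.032. In the lung genotype comparison the median was 0.075 with library totals, 0.33 on both RPKM scales, -0.13 at a mean RPKM of at least 5, -0.017 with either length trend and 0.021 with GC added, and 1 fit of all 4 groups called 1 gene. Lung control against TCR gave medians of -1.91 with library totals, -3.04 and -3.05 on RPKM (all genes 0.20, -0.45 and -0.87), -1.82 at a mean RPKM of at least 5, -2.29, -2.44 and -2.41 with the trends removed, and -2.36 with 42 lower when shared genes were left out. Leaving out single libraries gave medians of -1.13 to -1.03 with TSLP and of -2.17 to -1.99 between lung and spleen. Counts are not given for these, since leaving out a spleen library left 1 in its group. In the lung genotypes leaving out single libraries gave 0 calls and medians of -0.12 to -0.072. The replicate numbers did not pair libraries (correlations of deviations -0.12 with TSLP, -0.15 to 0.08 in lung, 0.03 and 0.05 between organs). With the replicate number as a block the counts were 78, 0 and 80 and the medians -1.09, -0.10 and -2.14, the 80 with Rps28 gained and Rpl39l lost, and a crossed block, added after seeing the data, also gave 78 falls. Unless a setting's construction shows it, the cause was not tested. The smallest lung library held 1439662 reads.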
